A study of Homo sapiens with 8 samples.

Results

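MDM2 and MDM4 restrain the tumour suppressor p53, and PPM1D and CDKN1A are among the genes that p53 switches on. The m6A peaks of these 4 genes, taken by gene name from all 4 deposited peak lists, made up 156 of 130622 listed peaks: 105 on MDM2, 47 on MDM4, 4 on PPM1D and none on CDKN1A. The lists come from MeRIP-seq, in which RNA fragments bound by an antibody against N6-methyladenosine (m6A) are sequenced beside input RNA. Cells of the osteosarcoma lines U2OS and 143B had been infected with lentivirus carrying either a short hairpin RNA against METTL14 (shMETTL14) or a control hairpin (NC, labelled shNC). The 4 groups were thus U2OS shMETTL14, U2OS NC, 143B shMETTL14 and 143B NC, with 1 immunoprecipitated and 1 input library each and 1 peak list per group. There are no replicates, so no difference between lists was tested, and the read depth behind a peak is unknown.

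In unstressed cells MDM2, a ubiquitin ligase, and MDM4, its relative, bind p53, hold back its activity and, through MDM2, mark it for destruction. PPM1D is a phosphatase that reverses the activating phosphorylations of p53 and of the DNA damage kinases, and CDKN1A encodes the cyclin-dependent kinase inhibitor p21. MDM2 and PPM1D are themselves p53 targets, which closes negative feedback loops, while METTL14 is a subunit of the methyltransferase that writes m6A on messenger RNA, mostly near stop codons and in 3' UTRs. As background, U2OS cells carry a truncating PPM1D mutation, and 143B cells are a RAS-transformed derivative of the HOS line.

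The places of MDM2, the stop codon place of MDM4 and the PPM1D peak were listed with shMETTL14 as well as with NC in both lines. Of the 16 member peaks with no overlap in the line's other list, 15 lay on MDM4, in its long 3' UTR and in upstream coding exons, while MDM2 peaks differed between lists in number and width. Peaks of the 2 lists of a line count as partners where their spliced blocks share 1 base or more of the same strand. Gained stands here for a peak listed with shMETTL14 that lacks a partner under NC, and lost for the reverse, so both words compare lists and measure no methylation. The genes were chosen by their place in the p53 pathway together with their listed peaks, fold enrichments and partners in these same lists, so their counts are a description. With shMETTL14 the members had 6 gained peaks of 43 in U2OS (14.0%, exact Clopper-Pearson 95% interval 5.30 to 27.9) and 5 of 38 in 143B (13.2%, interval 4.41 to 28.1). Over all genes, gained peaks made up 20.9% of the U2OS and 27.3% of the 143B shMETTL14 list. Of the NC peaks of the members, 1 of 44 was lost in U2OS (2.27%, interval 0.0575 to 12) and 4 of 31 in 143B (12.9%, interval 3.63 to 29.8), where 26.9% and 20.7% of all NC peaks of the same lines were lost. The intervals cover counting error only, and peaks of 1 gene are not independent, because a place is listed anew for each transcript that covers it. With overlapping peaks of a list merged into sites, 3 of 11 U2OS and 3 of 12 143B member sites with shMETTL14 were gained (24.9% and 32.0% of all sites), while 1 of 10 U2OS and 4 of 13 143B member sites with NC were lost (31.2% and 24.6% of all sites). The shares rest on the overlap asked for. When a partner had to cover at least 50% of both peaks, 18.6% of the U2OS and 68.4% of the 143B shMETTL14 peaks of the members were gained, where 37.0% and 43.1% of all peaks of those lists were. By the same criterion 18.2% of their U2OS and 61.3% of their 143B NC peaks were lost, where 41.7% and 39.5% of all peaks were. In 143B most of these were on MDM2, whose coding and proximal 3' UTR peaks cover more bases with shMETTL14 than with NC, with 19 of 24 shMETTL14 peaks gained and 13 of 18 NC peaks lost.

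MDM2 was listed with 29 peaks in U2OS shMETTL14, 34 in U2OS NC, 24 in 143B shMETTL14 and 18 in 143B NC. The median gene had 3 peaks in every list, and the share of genes with more peaks than MDM2 was 0.886% in U2OS shMETTL14, 0.482% in U2OS NC, 1.66% in 143B shMETTL14 and 3.19% in 143B NC. The MDM2 peaks lay on 14 transcripts in U2OS shMETTL14, 17 in U2OS NC, 14 in 143B shMETTL14 and 9 in 143B NC, all on the plus strand of chromosome 12. Joined over the 4 lists, they fell into 3 places, and each place was listed in all 4. These are the coding exons (build hg19, chr12:69222592-69233571), a proximal stretch of the 3' UTR (chr12:69233810-69234882) and a distal one (chr12:69235702-69236465).

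Over both lines, 1 of 53 shMETTL14 peaks of MDM2 was gained and 0 of 52 NC peaks were lost. In the whole lists, 20.9% of U2OS and 27.3% of 143B shMETTL14 peaks were gained, and 26.9% and 20.7% of NC peaks were lost. The MDM2 counts are rows of 3 places and rest on an overlap of 1 base. The gained peak was a weak one in U2OS (chr12:69233810-69233869, transcript ENST00000393412.3), with a fold enrichment of 1.88 and a p-value of 0.00115. Fold enrichment and p-value are the authors' own values for each peak and rank peaks within a list. Because the scale between lists is not given, fold enrichments of different lists are set side by side without being compared.

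**Figure D1:**
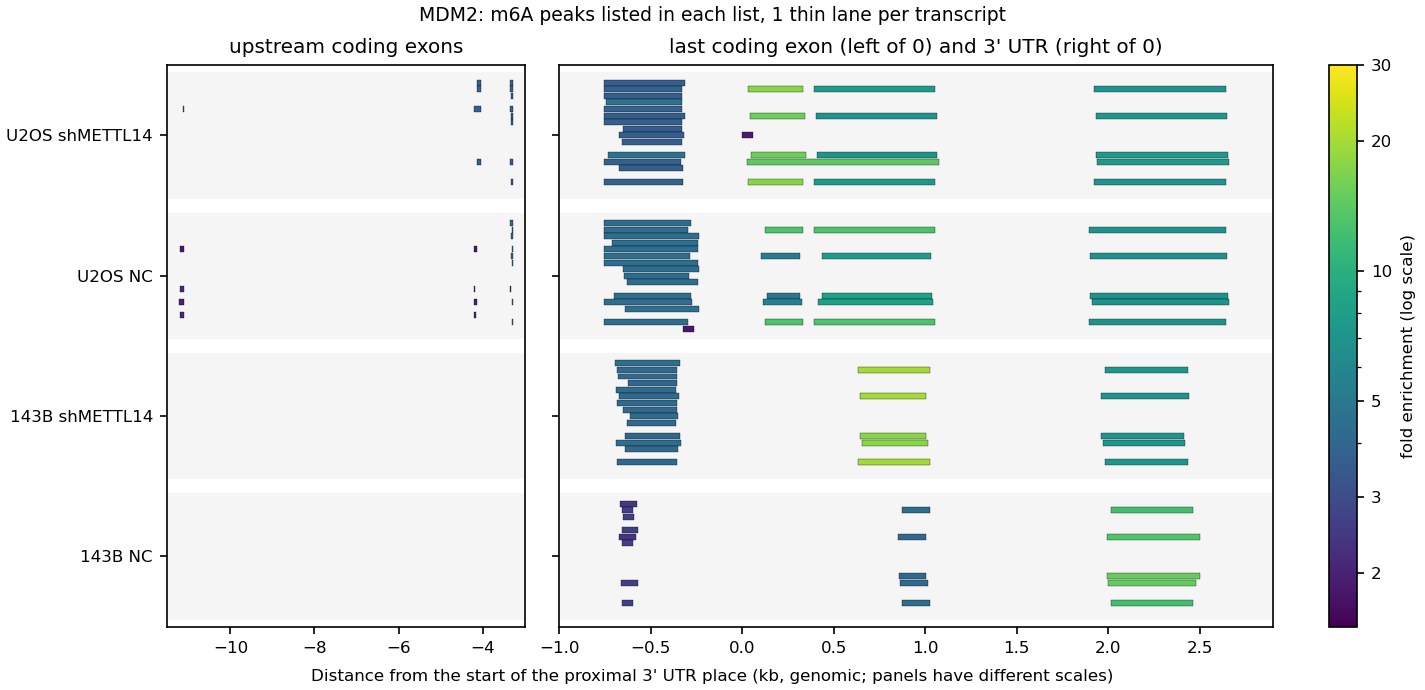
Peaks of MDM2 in each of the 4 lists, as blocks along the gene (x axis, genomic distance in kb from the start of the proximal 3' UTR place; the panels have different scales), with 1 lane per transcript and colour for the authors' fold enrichment. The last coding exon and both 3' UTR stretches carry peaks in every list, while the upstream coding exons and the first bases of the proximal stretch carry peaks only in the U2OS lists.

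The distal 3' UTR place held the MDM2 peaks with the lowest p-values in every list. The lowest was 1e-122 in U2OS shMETTL14 and 3.98e-95 in U2OS NC, and it was 1.58e-30 in 143B shMETTL14 and 1.26e-28 in 143B NC. A share of 0.647% of U2OS shMETTL14 peaks and 1.23% of U2OS NC peaks had a lower p-value, against 10.9% in 143B shMETTL14 and 8.24% in 143B NC. Fold enrichment over its 5 transcripts ran from 7.07 to 7.5 in U2OS shMETTL14 and from 6.88 to 7.08 in U2OS NC. In 143B the corresponding ranges were 7.02 to 7.27 with shMETTL14 and 12.1 to 14.8 with NC. The 5 distal MDM2 peaks of every list also overlapped a listed peak of CPM, a carboxypeptidase gene on the opposite strand. That CPM peak began at position 69236018 and had p-values of 2.51e-46 in U2OS shMETTL14, 1.58e-48 in U2OS NC, 1.78e-08 in 143B shMETTL14 and 1.26e-09 in 143B NC. Whether reads were assigned by strand is not given in the sources used here, so signal from MDM2 and CPM cannot be told apart in the overlap.

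The proximal 3' UTR place was listed over more bases in U2OS than in 143B. It covered 1073 nt in U2OS shMETTL14, and in U2OS NC it was listed as separate sites of 229 nt and 661 nt. In 143B it covered 391 nt with shMETTL14 and 171 nt with NC. The 5' part of the place (chr12:69233915-69234143 in U2OS NC) had no 143B partner with either hairpin. Its fold enrichment in U2OS NC depended on the transcript it was listed for, from 4.81 to 12.8, a ratio of 2.66 between rows of 1 library that describe nearly the same bases, while their p-values ran only from 5.50e-05 to 0.000129. In 143B the 5 rows of the place had fold enrichments of 17.7 to 19.9 with shMETTL14 and of 4.10 to 4.35 with NC. The shMETTL14 values were among the highest of that list (2.20% of peaks were above 17.7 and 1.43% above 19.9). The lowest p-values of the place were 2.88e-06 with shMETTL14 and 0.000234 with NC, with 54.7% and 72.8% of the peaks of those lists lower.

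In the coding exons, the peak of the last coding exon was common to all lists, and it was the only coding peak of MDM2 in 143B. It covered 363 nt over 14 transcripts in 143B shMETTL14 (chr12:69233115-69233477) and 106 nt over 8 transcripts in 143B NC (chr12:69233137-69233242). The fold enrichments were 3.97 to 4.34 with shMETTL14 and 2.36 to 2.61 with NC, and the lowest p-values were 7.94e-13 with shMETTL14 and 0.000417 with NC. In U2OS the coding peaks reached back to position 69222687 with shMETTL14 and 69222592 with NC, over upstream coding exons. With shMETTL14 these upstream blocks belonged to peaks that ran on into the last coding exon, while some were listed apart with NC. The lowest coding p-value was 1.58e-37 in U2OS shMETTL14 and 7.94e-37 in U2OS NC. Of the 34 U2OS NC peaks of MDM2, 10 had no 143B NC partner, where 30.2% of all U2OS NC peaks had none. All 18 peaks of MDM2 in 143B NC overlapped a U2OS NC peak, where 31.4% of all 143B NC peaks had no such partner.

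MDM4 was listed with 13 peaks in U2OS shMETTL14, 9 in U2OS NC, 13 in 143B shMETTL14 and 12 in 143B NC. Its peaks formed 15 places between positions 204513668 and 204527008 on the plus strand of chromosome 1. Of the 15 places, 2 were in all 4 lists, 2 in 3 lists, 4 in 2 lists and 7 in a single list. The MDM2 places each merge peaks of 5 or more transcripts, so the tallies of the 2 genes are not like for like. No tally of places was made over all genes. All of the places in the 3' UTR beyond the stop codon were listed for the longest transcript alone, ENST00000367182.3, with an RNA length of 10073 nt.

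**Figure D2:**
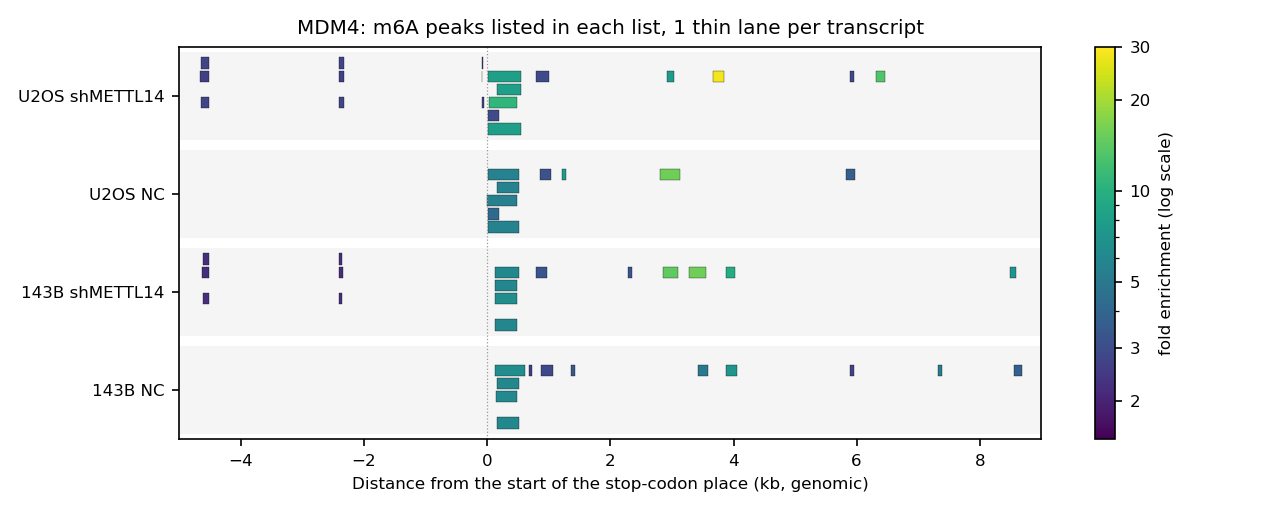
Peaks of MDM4 in each of the 4 lists, as blocks along the gene (x axis, genomic distance in kb from the start of the place across the stop codon), with 1 lane per transcript and colour for the authors' fold enrichment. Every list has blocks at or just right of 0, the upstream exon blocks appear only in both shMETTL14 lists, and the 3' UTR blocks are scattered with few positions common to all lists.

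The place across the stop codon (chr1:204518332-204518945) held the lowest MDM4 p-values in every list. For the longest transcript the peak had a fold enrichment of 8.0 and a p-value of 1e-39 in U2OS shMETTL14, against 5.61 and 5.01e-31 in U2OS NC. In 143B it had a fold enrichment of 6.09 and a p-value of 1e-28 with shMETTL14, against 6.52 and 2.00e-22 with NC. It ranked high within each list, since 5.08% of U2OS shMETTL14 peaks, 7.53% of U2OS NC peaks, 11.7% of 143B shMETTL14 peaks and 11.2% of 143B NC peaks had a lower p-value. Over its 5 transcripts the fold enrichment spread from 2.93 to 10.6 in U2OS shMETTL14 and from 4.15 to 5.61 in U2OS NC, and over 4 transcripts from 5.92 to 6.54 in 143B shMETTL14 and from 6.05 to 6.52 in 143B NC. The other place in all 4 lists lay just beyond it in the 3' UTR (chr1:204519124-204519394), with fold enrichments of 2.93 in U2OS shMETTL14, 3.18 in U2OS NC, 3.32 in 143B shMETTL14 and 2.91 in 143B NC.

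Gained MDM4 peaks numbered 5 of 13 with shMETTL14 in each line, and lost ones 1 of 9 with NC in U2OS and 4 of 12 with NC in 143B. Over all genes, 20.9% of U2OS and 27.3% of 143B shMETTL14 peaks were gained, and 26.9% of U2OS and 20.7% of 143B NC peaks were lost. The only place listed in both shMETTL14 lists and in neither NC list was in the coding exons upstream of the stop codon. Its rows are annotated as coding, except those of transcript ENST00000391947.2, which are annotated as 3' UTR. In U2OS it spanned chr1:204513668-204518272 and covered 258 nt of 3 exons, with fold enrichments of 2.61 to 2.74 and p-values of 3.98e-07 to 8.91e-07. In 143B it spanned chr1:204513698-204515990 and covered 181 nt of 2 exons, with fold enrichments of 2.22 to 2.26 and p-values of 0.000398 to 0.000457. It was listed for 3 transcripts in each line, so the 3 gained rows per line stand for 1 place. In U2OS it ended 59 nt before the stop codon place, so with partners allowed within 100 bp its rows were no longer gained there and 2 of 13 MDM4 peaks were, while 143B kept 5 of 13.

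The MDM4 peak with the highest fold enrichment was gained in U2OS shMETTL14, in the middle of the 3' UTR (chr1:204522002-204522182). Its fold enrichment was 28.3, with 62 of the 29992 peaks of that list higher and 16 others at the same value, and its p-value was 6.61e-08, with 40.0% of the list lower. No other list had an MDM4 peak on these bases. In 143B the nearest peaks began 29 nt beyond its end, at chr1:204522212-204522362 with shMETTL14 (fold enrichment 9.42) and chr1:204522212-204522392 with NC (7.17). Of the 7 places in a single list, it was the only one with a p-value at or below 0.0001. Among all peaks of a list with higher p-values, 44.8% to 59.0% had no partner in the line's other list. The other gained U2OS peak of the 3' UTR (chr1:204524640-204524790) had a fold enrichment of 13.1 and a p-value of 0.000646.

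In 143B the gained 3' UTR peak with the lowest p-value lay at chr1:204521193-204521433, with a fold enrichment of 14.4 and a p-value of 7.94e-07. This place was listed in both U2OS lists, at a fold enrichment of 7.63 with shMETTL14 and 15.4 with NC, and was missing from 143B NC only. The remaining gained peak of 143B (chr1:204520623-204520683) had a fold enrichment of 3.32 and a p-value of 0.00275. The next place (chr1:204521612-204521912) was listed in 143B only, with fold enrichments of 15.5 with shMETTL14 and 4.96 with NC. A place near the end of the 3' UTR (chr1:204526828-204527008) was likewise in 143B only, with fold enrichments of 7.20 with shMETTL14 and 3.73 with NC. Of the 13 MDM4 peaks in U2OS shMETTL14, 3 had no 143B shMETTL14 partner, and of the 9 in U2OS NC, 2 had no 143B NC partner, where 22.0% of all U2OS shMETTL14 peaks and 30.2% of all U2OS NC peaks had none. Seen from 143B, 4 of 13 peaks with shMETTL14 and 6 of 12 with NC had no partner in the U2OS list of the same hairpin, where 34.6% of all 143B shMETTL14 peaks and 31.4% of all 143B NC peaks had none.

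The lost MDM4 peaks were short and had high p-values for their lists. All 5 of them, 1 in U2OS and 4 in 143B, were 61 nt wide. In U2OS the lost peak began at position 204519544, and in 143B the lost peaks began at positions 204519005, 204519694, 204524220 and 204525659. The place at 204524220 was also in both U2OS lists, with fold enrichments of 2.91 with shMETTL14 and 3.69 with NC. The p-values of the lost peaks were 0.00151 in U2OS and 0.000398 to 0.00182 in 143B, and their fold enrichments 7.70 in U2OS and 2.61 to 5.22 in 143B. Over all genes, 66.7% of U2OS NC peaks of at most 61 nt were lost, against 22.6% of wider ones, and in 143B the shares were 54.9% and 16.8%. None of the 33 member peaks in U2OS NC with a p-value at or below 0.0001 was lost, nor any of the 10 in 143B NC, where 13.0% and 8.12% of all such NC peaks were. With shMETTL14, 4 of 40 such member peaks in U2OS were gained and 1 of 32 in 143B, where 9.12% and 15.2% of all such peaks were.

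**Figure D3:**
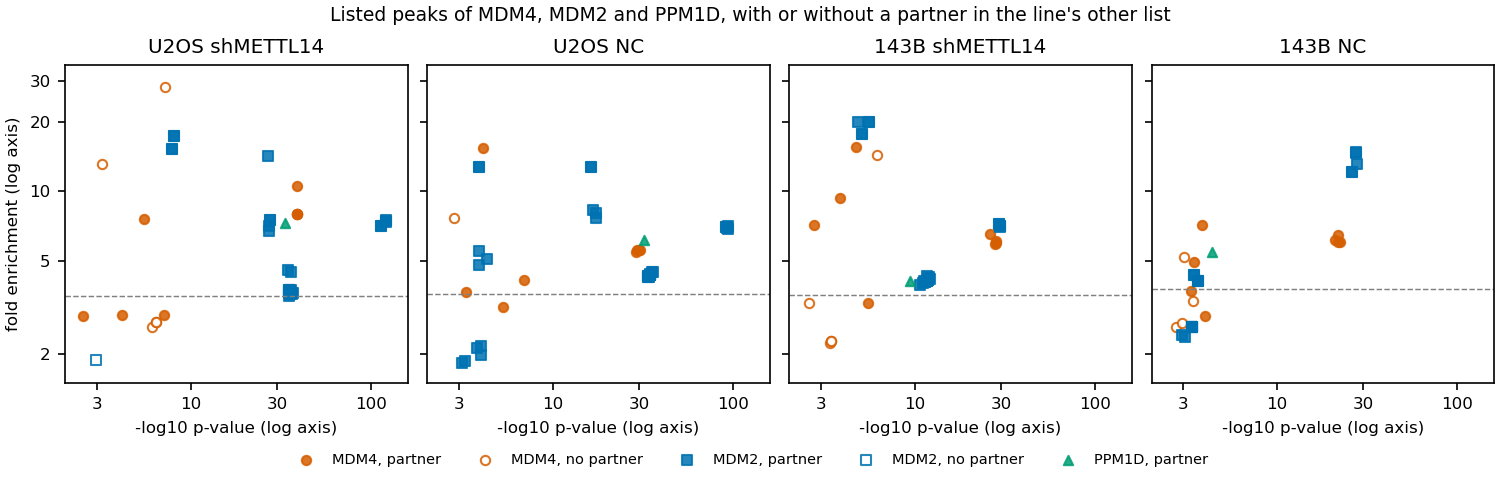
Every listed peak of MDM4, MDM2 and PPM1D by the authors' p-value (x axis, -log10, log axis) and fold enrichment (y axis, log axis), 1 panel per list; filled symbols have a partner in the line's other list, open symbols have none, and the dashed line is the median fold enrichment of the whole list. No open symbol has a p-value below 6.61e-08, and the MDM4 peak at 28.3 in U2OS shMETTL14 is the highest point.

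PPM1D, which had 1 peak in each list, carried it at the end of the coding sequence and into the 3' UTR on chromosome 17, always on transcript ENST00000305921.3. In U2OS the peak covered chr17:58740536-58741133 with shMETTL14 and chr17:58740476-58741103 with NC. In 143B it covered chr17:58740565-58741043 with shMETTL14 and chr17:58740625-58740894 with NC, the last of these lying in the coding sequence only. The peak stood among the low p-values of both U2OS lists and nearer the middle of the 143B lists. Its p-value was 5.01e-34 in U2OS shMETTL14 and 1.26e-32 in U2OS NC, with 6.58% and 6.97% of the peaks of those lists lower. In 143B it was 4.57e-10 with shMETTL14 and 4.57e-05 with NC, with 36.1% and 60.4% of peaks lower. The fold enrichments were 7.35 in U2OS shMETTL14, 6.21 in U2OS NC, 4.10 in 143B shMETTL14 and 5.48 in 143B NC. All 4 peaks overlapped each other, so PPM1D had 0 lost and 0 gained peaks in either line.

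CDKN1A had no row in any of the 4 lists. A missing row says only that no peak on the gene is listed; neither an m6A level nor an RNA level of CDKN1A can be read from the lists.

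Wholly within a 3' UTR lay 23 of 43 member peaks in U2OS shMETTL14, 22 of 44 in U2OS NC, 19 of 38 in 143B shMETTL14 and 19 of 31 in 143B NC. In the whole lists the 3' UTR share of peaks was 22.4% in U2OS shMETTL14, 22.7% in U2OS NC, 25.0% in 143B shMETTL14 and 25.0% in 143B NC. No member peak touched a 5' UTR. The region is annotated per transcript, so the same MDM2 bases are named coding for most transcripts and 3' UTR for a few short ones.

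Of all genes with a peak under 1 hairpin, 12.4% with shMETTL14 had none under NC in U2OS and 16.9% with NC had none under shMETTL14, and in 143B the shares were 15.5% and 11.8%. Among regulators of p53, a list of 35 genes that includes MDM2, MDM4 and PPM1D, 27 had a peak in some list and 19 in all 4; over all genes, 51.0% of the 8758 with a peak in any list had peaks in all 4. The 8 with no listed peak were CHEK2, DAXX, RCHY1, RFWD2, CDKN2A, RPL23, PRMT5 and TP63. Regulators listed under 1 hairpin of a line numbered 0 of 20 with shMETTL14 and 4 of 24 with NC in U2OS, and 2 of 24 with shMETTL14 and 1 of 23 with NC in 143B. Gained were 20 of 150 U2OS shMETTL14 peaks on these genes (13.3%, interval 8.34 to 19.8) and 41 of 176 in 143B (23.3%, interval 17.3 to 30.2). Lost were 21 of 160 U2OS NC peaks (13.1%, interval 8.31 to 19.4) and 12 of 150 in 143B (8.0%, interval 4.20 to 13.6). The shares of all peaks were 20.9% gained and 26.9% lost in U2OS, and 27.3% gained and 20.7% lost in 143B.

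Other regulators had peaks without a partner in either list of a line. Their counts are rows per transcript, to be read beside the shares of all peaks just given. In U2OS, PPP1R13B, which encodes ASPP1, a promoter of the apoptotic activity of p53, had 5 of 7 NC peaks lost. These were 2 rows at each of 2 lost sites and 1 row of a site that was kept. The damage kinase ATM had both of its NC peaks lost there, at 1 site. The deubiquitinase USP7, which stabilises MDM2 and p53, had 3 of 19 lost, also at 1 site. KAT5, an acetyltransferase of p53, had 5 of 11 shMETTL14 peaks gained in U2OS, all rows of 1 site. TP53BP1, a p53-binding DNA damage protein, had 3 of 13, also rows of 1 site. The acetyltransferase CREBBP had 2 of 13 gained and the p53 kinase HIPK2 had 2 of 5. In 143B, the checkpoint kinase CHEK1 had 10 peaks with shMETTL14 and 0 with NC, and the p53 relative TP73 had 8, at 2 sites, and 0. The 10 CHEK1 rows stand for 1 place (chr11:125497561-125499131), with fold enrichments of 1.88 to 1.97. USP7 had 8 of its 20 shMETTL14 peaks gained in 143B, at 2 sites. TRIM28, a corepressor that works with MDM2, had all 3 shMETTL14 peaks gained and all 3 NC peaks lost in 143B, at places that do not overlap. Its shMETTL14 place there had fold enrichments of 1.42 to 1.46 and a lowest p-value of 2.40e-05, and its NC place had 3.58 to 5.29 and 5.01e-30. In U2OS, TRIM28 had 0 peaks with shMETTL14, and its 2 NC peaks, at 1 site with a lowest p-value of 0.000166, were lost too. The damage kinase ATR had both of its 143B NC peaks lost (1 site), PPP1R13B 2 of 6 (1 site) and the acetyltransferase EP300 1 of 7. SIRT1, a deacetylase of p53, and NPM1, a nucleolar binder of MDM2, had none lost or gained in either line. The same held for RPL11, a ribosomal protein that binds MDM2, and the p53 deubiquitinase USP10 in both lines, and for KAT5 in 143B.

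Among p53 target genes, a list of 44 that includes MDM2, PPM1D and CDKN1A, 29 had a peak in some list and 13 in all 4. Besides CDKN1A, the 15 with no listed peak include FAS, SESN1, DDB2, CCNG1 and GDF15. Targets listed under 1 hairpin of a line numbered 1 of 24 with shMETTL14 and 2 of 25 with NC in U2OS, and 2 of 16 with shMETTL14 and 5 of 19 with NC in 143B. Gained were 13 of 102 U2OS shMETTL14 peaks (12.7%, interval 6.96 to 20.8) and 15 of 78 in 143B (19.2%, interval 11.2 to 29.7). Lost were 6 of 103 U2OS NC peaks (5.83%, interval 2.17 to 12.2) and 12 of 68 in 143B (17.6%, interval 9.47 to 28.8). The shares of all peaks were again 20.9% gained and 26.9% lost in U2OS, and 27.3% gained and 20.7% lost in 143B. Without MDM2 and PPM1D, an alternative chosen after seeing the data, 16.7% of U2OS and 28.3% of 143B shMETTL14 peaks on targets were gained, and 8.82% of U2OS and 24.5% of 143B NC peaks were lost. BBC3, which encodes the apoptosis inducer PUMA, had 5 of 10 shMETTL14 peaks gained and 2 of 7 NC peaks lost in U2OS, and all 4 kept in 143B. Of its gained peaks, 4 were rows of 1 site. APAF1, the core of the apoptosome, had 11 peaks at 2 places of its 3' UTR in 143B shMETTL14 and 0 in the other lists. E2F7, a repressor of cell cycle genes, had 3 peaks in U2OS shMETTL14 and 0 in U2OS NC, and 0 in 143B shMETTL14 and 3 in 143B NC. TP53I3, an oxidoreductase, kept its 3 peaks in U2OS and had 0 with shMETTL14 and 3 with NC in 143B. The 3 rows of E2F7 or TP53I3 in a list stand for 1 site. The E2F7 sites of the 2 lines do not overlap. The U2OS site was chr12:77449713-77449833, with p-values of 0.000324 to 0.000575. The 143B site was chr12:77439866-77439955, with p-values of 0.00229 to 0.0038. In U2OS, 1 of 3 shMETTL14 peaks was gained on each of BTG2, an antiproliferative gene, and the kinase gene PLK2, while NINJ1 had 2 of 2 NC peaks lost, C12orf5 (TIGAR, a regulator of glycolysis) 1 of 2 and the stress sensor gene SESN2 1 of 1. In 143B, the translesion polymerase gene POLH had 2 of 6 shMETTL14 peaks gained, the apoptosis effector gene BAX 1 of 3 and NINJ1 1 of 1, while KIAA0247 had 2 of 2 NC peaks lost. The U2OS peaks had p-values of 0.00166 (BTG2), 1.32e-07 (PLK2), 2.95e-05 and 0.000646 (NINJ1), 7.59e-06 (C12orf5) and 0.000468 (SESN2). Those of the 143B peaks ran from 0.000331 to 0.00209. Among all peaks of a list with p-values above 0.0001, 44.8% to 59.0% had no partner in the line's other list. The DNA repair gene XPC and the death receptor gene TNFRSF10B had none lost or gained in either line. The same held for PMAIP1, which encodes the apoptosis inducer NOXA. Nor were any lost or gained on BAX, POLH and TRIM22 in U2OS, or on BBC3 in 143B.

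**Figure D4:**
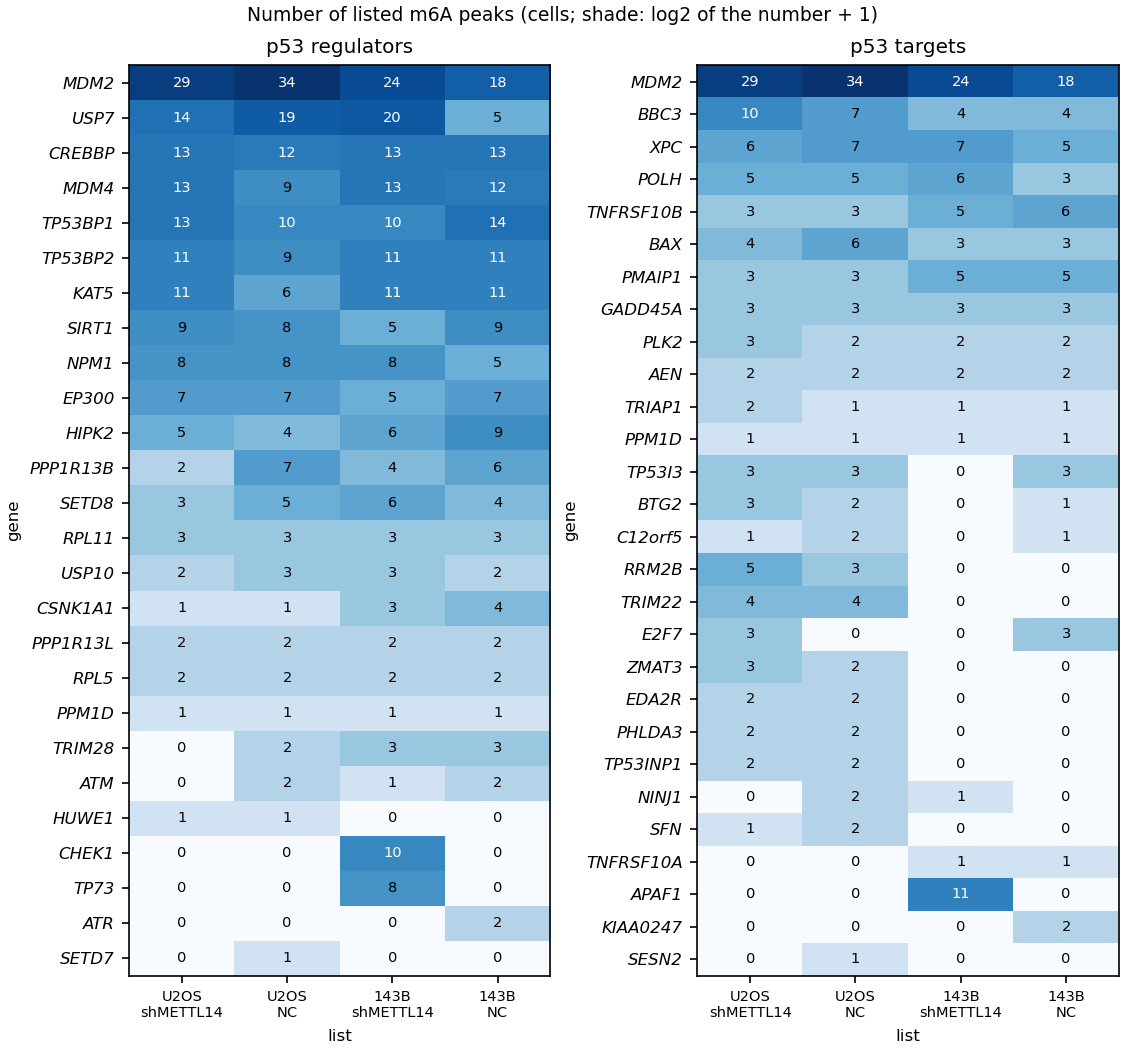
Number of listed peaks (cells) of the p53 regulators and p53 targets with a peak in at least 1 list (rows, without genes not reported here), by list (columns); darker shade means more peaks. Most regulators have peaks in all 4 columns, while TRIM22, RRM2B, ZMAT3, EDA2R, PHLDA3, TP53INP1 and SFN have peaks in both U2OS columns and 0 in both 143B columns.

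Some target genes had peaks in 1 line and not in the other. Of the 23 target genes with peaks in both U2OS lists, 7 had none in either 143B list (30.4%), where 8.17% of the 5337 genes with peaks in both U2OS lists had none. They were EDA2R, a receptor of the TNF receptor family, the AKT inhibitor PHLDA3, the ribonucleotide reductase subunit RRM2B, the 14-3-3 protein gene SFN, the autophagy and apoptosis regulator TP53INP1, TRIM22 and the RNA-binding ZMAT3. In the other direction, 1 of 14 target genes with peaks in both 143B lists had none in U2OS, the death receptor gene TNFRSF10A, where 10.9% of all such genes had none. Of the regulators, 1 of 20 with peaks in both U2OS lists had none in 143B, the ubiquitin ligase HUWE1. The lowest U2OS p-values of these 7 genes differed widely. They were 6.31e-25 with shMETTL14 and 7.94e-22 with NC for SFN, 6.31e-19 with shMETTL14 and 3.16e-16 with NC for TRIM22, and 7.94e-15 with shMETTL14 and 1e-11 with NC for EDA2R. PHLDA3 had 4.17e-09 with shMETTL14 and 8.71e-10 with NC, and ZMAT3 had 1.10e-05 with shMETTL14 and 6.76e-05 with NC. TP53INP1 had 0.000288 with shMETTL14 and 5.25e-05 with NC, and RRM2B had 0.000166 with shMETTL14 and 0.000263 with NC. A gene without RNA can carry no peak, and the lists give no RNA levels, so less RNA and less m6A cannot be told apart.

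The genes most like each member over the 4 lists were taken as those with peaks in all 4 lists whose highest fold enrichment had the nearest within-list percentiles, by Euclidean distance. MDM4 had percentiles of 99.2 in U2OS shMETTL14, 91.7 in U2OS NC, 89.7 in 143B shMETTL14 and 68.5 in 143B NC. Of 4440 genes, SFPQ was nearest to it, at 4.32 percentile points, followed by MED29 and DNAJC3. MDM2 had percentiles of 94.0, 87.4, 94.9 and 89.9 in the same order, and TIGD6 was nearest, at 2.25 points, followed by DNAJC22 and TRMT10B. PPM1D had percentiles of 73.0, 65.5, 37.1 and 52.5, and RAB32 was nearest, at 6.21 points, followed by SNX1 and FAM69A. Fold enrichments are tied for many genes, so this order is coarse. The highest fold enrichment of MDM4 came from a different place in each list, so its percentiles do not follow a single place.

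Across the series, the lists held 29992 to 35195 peaks on 6092 to 6916 genes. METTL14, the target of the hairpin, had 2 listed peaks in U2OS shMETTL14, 5 in U2OS NC, 4 in 143B shMETTL14 and 1 in 143B NC, which do not measure its RNA, so the knockdown could not be checked. Of 9 osteoblast markers, RUNX2 and SPARC had peaks in all 4 lists, and COL1A1 in 3 of them. The other 6 (COL1A2, ALPL, SPP1, SP7, IBSP and BGLAP) had none in any list. Of 10 markers of other cell types, KRT8 had peaks in all lists and KRT18 in the 143B lists, and the other 8 had none. Whether a marker carries a peak does not give its RNA level.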

How the data were processed

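The 4 peak lists, from the immunoprecipitated libraries, were read as deposited, with groups taken from the sample titles. FastQC 0.11.5, Trimmomatic, HISAT2 and build hg19 are named in the submitters' processing notes. The peak caller, with its threshold, strand setting and depth, is not given in the sources used here. Deposited for every peak are a p-value, a linear fold enrichment (a ratio) and a transcript region, all from the authors, and the largest p-value of a list was 0.00501 to 0.00617. Coordinates are 1-based.

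Partners were found from spliced blocks. Sites merge overlapping peaks within a list, and places merge them over all lists of a gene. Alternatives changed the overlap, the limits on p-value and fold enrichment, the unit counted and the use of introns. The matching code was checked by removing sites from the U2OS NC list and finding which peaks then lacked a partner. Sites are built from the same overlaps, so this checks the code and not the gained and lost calls. Python 3.11.15 was used with numpy 2.4.6, pandas 2.3.3, scipy 1.17.1 and matplotlib 3.10.9.

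The members and gene lists were chosen with earlier results of these data known. From the regulators and targets of p53, the text names up to 4 genes per line and direction with most lost or gained peaks, and up to 4 with most listed peaks and none lost or gained, ties by name. Some genes of these lists are counted in the totals and not reported here by name. For each member it names the 3 most alike genes. Genes listed in 1 line only were named after their values were seen. Sequences of build hg19 were not used here.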

Additional observations from a re-analysis of the deposited data

Results flagged for a closer look

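The number of listed MDM2 peaks moved in opposite directions in the 2 lines. With shMETTL14 it dropped by 5 in U2OS (29 peaks with shMETTL14 and 34 with NC), and it was higher by 6 in 143B (24 with shMETTL14 and 18 with NC). The whole lists had 29992 peaks with shMETTL14 and 32353 with NC in U2OS, and 35195 with shMETTL14 and 33082 with NC in 143B, so their totals moved the same way in each line. The difference between the lines was not tested, since each group has 1 list. In both lines the same 3 places were listed with both hairpins, and the number of transcripts listed was 14 with shMETTL14 and 17 with NC in U2OS, and 14 with shMETTL14 and 9 with NC in 143B.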

How the results depend on the processing

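Over 12 shares of lost or gained peaks and 116 alternatives, 83 values stayed within the 95% interval and 33 moved; apart from the settings' own construction, the cause was not tested. With 50% of both peaks covered, the gained share in 143B was 68.4% for the members, 52.3% for the regulators and 52.6% for the targets, and the lost share 61.3%, 46.0% and 45.6%. In U2OS that setting gave gained shares of 22.0% for the regulators and 21.6% for the targets, and lost shares of 18.2% for the members, 28.1% for the regulators and 21.4% for the targets. With partners within 100 bp, 4.65% of the U2OS member peaks were gained, where 18.4% of all peaks of that list were. Counting peaks with a p-value at or below 0.0001, against all peaks of the other list, gave gained shares of 3.13% for the members and 9.84% for the targets in 143B, and 4.50% for the regulators and 2.53% for the targets in U2OS. Lost shares were then 0% for the members in both lines, and 3.30% in 143B and 7.32% in U2OS for the regulators. Of all peaks at or below this limit, 9.12% in U2OS and 15.2% in 143B were gained, and 13.0% and 8.12% were lost. With that limit on both lists, 68.8% of member, 35.8% of regulator and 52.5% of target peaks in 143B and 2.53% of target peaks in U2OS were gained, and 0% of member peaks were lost in both lines. In the whole lists this setting gave 26.8% gained and 14.4% lost in 143B, and 17.6% gained and 22.4% lost in U2OS. Of the 22 member peaks gained in 143B, 19 were rows of MDM2. Their partners in 143B NC were listed with p-values above the limit. Among peaks at or above their list's median fold enrichment, gained shares were 3.03% for the members and 10.1% for the regulators in 143B and 1.69% for the targets in U2OS, where 1.59% of target peaks were lost. Shares of all peaks were not computed at this limit, so these values have no baseline. Counted as sites, 30.8% were lost on the members in 143B. Use of the longest transcript of each gene, chosen after seeing the data, gave 30.8% for the same share and 12.8% for lost target peaks in U2OS. Shares of all peaks were not computed for longest transcripts either. No paired analysis was possible because the labels give 1 library per group, and for the same reason no replicate could be left out. The lists give no depth, so how far it limits a missing peak is unknown.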
